A study of Mus musculus with 15 samples.

Results

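Chemokines and their receptors were followed in the cecal transcriptome as every gene whose symbol starts with Ccl, Cxcl, Ccr or Cxcr directly followed by a digit. The deposited table lists 56 such symbols, and 49 of them were above 0 in at least 1 mouse, among 24279 genes above 0 in all. These 49 genes are 21 Ccl and 11 Cxcl genes, the family of the ligands, and 11 Ccr and 6 Cxcr genes, the family of the receptors. GENCODE M21 types Ccl19-ps1 as a pseudogene and Cxcl11 as a polymorphic pseudogene. The other 7 symbols (Ccl19-ps3, Ccl21b, Ccl21c, Ccl26, Ccl27b, Cxcl15 and Cxcl17) were listed at 0 in every mouse. The mice were wild-type C57BL/6 males, 20 weeks old by their labels and were gavaged 2 times a day for 30 days. Ampicillin, vancomycin, metronidazole, neomycin and amphotericin B were given to 7 mice (antibiotic-induced microbiome depletion, AIMD), and water was given to 8 mice (vehicle). The comparison asks which signals that recruit leukocytes differ in the cecum once its microbes are depleted. Ceca were emptied and flash-frozen, and no separation of their layers is described. The RNA thus mixes epithelium, lymphoid tissue and muscle, and fewer cells of a type cannot be told apart from less RNA per cell. Whether whole ceca or pieces gave the RNA is not stated.

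Values are FPKM (the reads of a gene, scaled to the length of the gene and to the depth of the library). Because FPKM are per length, levels can be set side by side between genes. Whole reads could be recovered from the table, and they gave 8679679 to 18108586 reads per AIMD mouse and 4372423 to 14405949 per vehicle mouse. The deeper AIMD libraries held 40 to 45 of the 49 genes above 0, and the vehicle libraries held 33 to 39. Markers of the epithelium fitted the labelled tissue, with a summed FPKM of 24947 to 35096 in AIMD mice and of 21875 to 30336 in vehicle mice. Within each group, the genes of the circadian clock separated the mice further, and 3 AIMD and 4 vehicle mice lay on the side where Arntl, the core clock activator also called Bmal1, was high. The study's own model held the time of sacrifice, which the labels do not give, so values within each side are printed where they change a call.

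Chemokines are small secreted proteins that form gradients along which leukocytes move. Each is read by G protein-coupled receptors on the migrating cell, and the receptor mostly decides which cell type answers. In the gut, the epithelium secretes some of them at all times and draws lymphocytes and dendritic cells to the mucosa and its lymphoid follicles, while others are induced in inflammation by NF-kappaB or by interferons. The families are named after the first cysteines of the mature protein, which are adjacent in CC chemokines (Ccl) and separated by 1 residue in CXC chemokines (Cxcl).

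The letters behind that rule are shown for the ligands that the results below turn on, as the coding sequence around the first cysteines in GENCODE M21, GRCm38, with the cysteine codons in capitals. The windows are of 36 bases in the CC genes and 39 bases in the CXC genes. In Ccl20 and Cxcl14 the window is spliced from 2 exons, so their coordinates take in an intron.
Ccl5 (chr11:83529227-83529262, minus strand): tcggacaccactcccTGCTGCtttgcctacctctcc
Ccl6 (chr11:83589371-83589406, minus strand): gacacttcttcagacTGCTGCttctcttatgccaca
Ccl20 (chr1:83116902-83117833, plus strand): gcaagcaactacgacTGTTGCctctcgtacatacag
Ccl28 (chr13:119645877-119645912, plus strand): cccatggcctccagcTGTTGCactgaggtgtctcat
Cxcl16 (chr11:70459112-70459150, minus strand): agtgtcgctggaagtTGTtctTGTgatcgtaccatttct
Cxcl14 (chr13:56295900-56296116, minus strand): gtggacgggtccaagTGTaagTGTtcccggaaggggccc
Cxcl9 (chr5:92326827-92326865, minus strand): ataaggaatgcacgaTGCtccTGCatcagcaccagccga
Cxcl1 (chr5:90891481-90891519, plus strand): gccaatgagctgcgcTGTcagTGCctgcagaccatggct
Of these, Cxcl1 alone has the codons for glutamate, leucine and arginine directly before the first cysteine, the mark of the CXC chemokines that act on neutrophils.

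Levels were spread widely within the family. A mean FPKM of at least 1 over the 15 mice was reached by 17 of the 49 genes, and 12 stayed under 0.1. The 5 highest, in order of their mean FPKM, were Ccl20 (19.5), Cxcl13 (19.2), Ccl6 (13.3), Ccl28 (12.2) and Ccl9 (10.6), which together made up 55.4% of the summed FPKM of the family. Among the receptors Cxcr4 (6.89) and Ccr1 (5.09) were highest. The SDs of neighbours in this order overlapped. The order differed between the groups: Ccl6 ranked 1 by mean FPKM in vehicle mice and 8 in AIMD mice, and Ccl20 ranked 2 and 1. The summed FPKM of the ligands ran from 88.8 to 152 with a median of 133 in AIMD mice, and from 92.9 to 151 with a median of 107 in vehicle mice, so the groups overlapped.

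Testing required that 7 or more mice reach an FPKM of 0.5, and 24 of the 49 genes (18 ligands and 6 receptors) passed. After AIMD 7 of these 24 differed at a limma adjusted p under 0.05, which is 29.2%, against 36.0% of all 11971 genes tested. Ccl5, Ccl20, Cxcl16, Cxcr6 and Ccr1 rose (5 of 24; 19.4% of all genes tested rose). Ccl6 and Cxcl14 fell (2 of 24; 16.6% of all genes tested fell). With this filter the share of the family that changed was thus not above that of the genes at large. Without a filter the order was the other way round: 12 of all 49 genes were called (24.5%), against 17.4% of 24279 genes, with 9 higher (9.90% of all genes) and 3 lower (7.47%). Only 5 of these 12 were among the 7, and they include genes of very few reads such as Ccr4. In none of the 24 did the groups fail to overlap (8.56% of all genes tested had no overlap, 5.26% higher and 3.30% lower). The median log2 fold change of the 24 was 0.03, and that of all genes tested was 0.01. Fold changes are on the log2(FPKM + 0.5) scale, which understates the change of low genes.

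**Figure D1:**
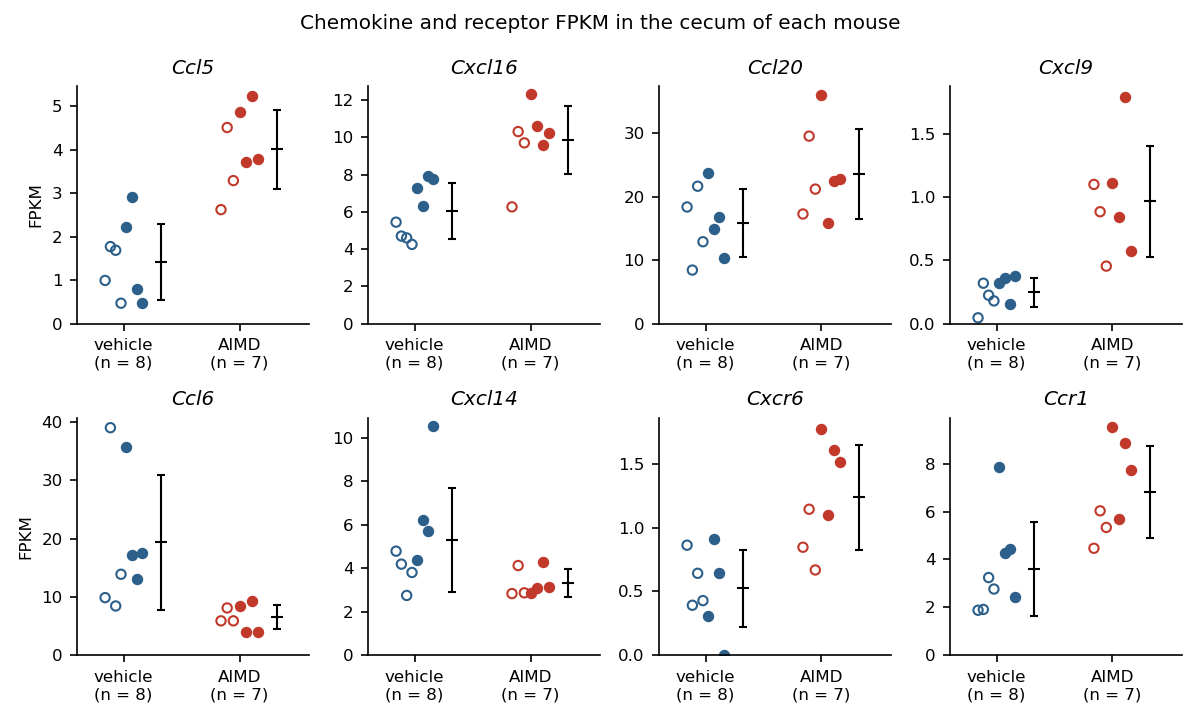
FPKM (vertical axis, linear) of 8 genes in each of 8 vehicle-treated (blue) and 7 AIMD mice (red). Open circles are mice on the Arntl-high side of the clock-gene axis and filled circles those on the Arntl-low side, and bars give the mean ± SD. Ccl5, Cxcl16, Ccl20, Cxcl9, Cxcr6 and Ccr1 sat higher in AIMD mice and Ccl6 and Cxcl14 lower, and Cxcl9 alone had no overlap.

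Ccl5, also called RANTES, attracts T cells and monocytes through receptors that include Ccr1 and Ccr3. Its FPKM was 2.62 at the lowest, 3.80 at the median and 5.23 at the highest AIMD mouse. In vehicle mice it was 0.468, 1.34 and 2.91. Of the 7 AIMD mice 6 lay above the highest vehicle mouse, and the means (4.01 ± 0.92, SD, n = 7, against 1.42 ± 0.88, SD, n = 8) stood in a ratio of 2.83. The log2 fold change was 1.34 (SE 0.25, limma adjusted p = 0.000735). These values rest on 39 to 66 reads per AIMD mouse and 2 to 26 per vehicle mouse. On the Arntl-high side the log2 fold change was 1.26 and on the Arntl-low side 1.39, both past the threshold (limma adjusted p = 0.0185 and 0.0237).

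Ccl6 moved the other way. This CC chemokine of rodents, made by macrophages and other myeloid cells, acts through Ccr1. Its FPKM was 4.01 at the lowest, 5.87 at the median and 9.29 at the highest AIMD mouse, and 8.42, 15.5 and 39.0 in vehicle mice. In 7 of 8 vehicle mice it was above every AIMD mouse, and the vehicle mean was 2.97 times the AIMD mean. Vehicle replicates 2 (39.0) and 5 (35.7) were far above the other vehicle mice. The log2 fold change was -1.37 (SE 0.30, limma adjusted p = 0.00221), and with any 1 mouse left out it ran from -1.50 to -1.20 and stayed past the threshold. On the Arntl-high side it was -1.10 and was not past the threshold (limma adjusted p = 0.101), and on the Arntl-low side it was -1.61 (limma adjusted p = 0.0118).

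Ccl5 and Ccl6 are near neighbours. Both lie on the minus strand of chromosome 11 in one run of 5 CC genes from 83525778 to 83664683 (GRCm38), with 57364 bases between them, and Ccl9 lies between them, 9246 bases from Ccl6. Ccl9, chosen here after its values were seen, is also made by myeloid cells and by the epithelium over lymphoid follicles, and it is also a ligand of Ccr1. Its FPKM was 6.92 to 14.0 with a median of 9.36 in AIMD mice and 7.13 to 15.1 with a median of 10.8 in vehicle mice (log2 fold change -0.03, SE 0.17, limma adjusted p = 0.911). The run thus held 1 gene that rose, 1 that fell and 1 that was not past the threshold. Ccl3 and Ccl4, the other 2 genes of the run, which encode inflammatory chemokines of macrophages and T cells, were under the filter, with 16 and 24 reads in all AIMD mice together and 5 and 15 in all vehicle mice.

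Ccr1, the receptor that Ccl5, Ccl6 and Ccl9 share, is carried by monocytes, macrophages and neutrophils. Its FPKM was 4.47 at the lowest, 6.04 at the median and 9.54 at the highest AIMD mouse. In vehicle mice it was 1.87, 3.00 and 7.87. Only vehicle replicate 5, at 7.87, reached into the upper part of the AIMD range, and 2 AIMD mice lay above it. Its log2 fold change was 0.92 (SE 0.24, limma adjusted p = 0.00774). It was 1.00 on the Arntl-high side (limma adjusted p = 0.0103) and 0.77 on the Arntl-low side, where it was not past the threshold (limma adjusted p = 0.0844).

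Markers of macrophages and monocytes moved with the group as well. Of their 8 tested genes 4 rose (50%, against 19.4% of all genes tested), 0 fell and 4 were not past the threshold. Their summed FPKM was 85.7 to 252 with a median of 145 in AIMD mice and 65.0 to 105 with a median of 79.4 in vehicle mice. Much of this sum is Lyz2 alone, with medians of 99.6 in AIMD mice and 45.8 in vehicle mice. No marker of the list was at 0 in all mice. Those with the smallest p were Lyz2 (log2 fold change 1.24, limma adjusted p = 0.00199), which encodes a lysozyme, and Csf1r (0.78, 0.00640), the receptor of macrophage colony-stimulating factor. C1qa (0.64, 0.0141), a subunit of complement C1q, and Cd68 (0.48, 0.0145), a lysosomal glycoprotein, followed. Within groups, over the 15 mice, log2 FPKM of Ccr1 correlated with the log2 sum of these markers at Pearson's r = 0.35 (permutation p = 0.131, BH adjusted p = 0.196 over 24 relations) and Spearman's rho = 0.44 (permutation p = 0.0962). Without the 2 mice farthest from the median r was 0.31, and with values centred also within the sides of the clock-gene axis it was 0.02. With the markers of T cells, Ccr1 stood at r = 0.52 (permutation p = 0.0370, BH adjusted p = 0.0634) and rho = 0.625 (permutation p = 0.0124). That r was 0.45 without 2 mice and 0.41 within sides. With the markers of B cells r was 0.26 (permutation p = 0.288, BH adjusted p = 0.345). The part of macrophages and monocytes in the values of Ccl5 and Ccl6 was not tested.

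Cxcl16 and its only known receptor Cxcr6 rose together. Cxcl16 is a membrane-bound chemokine of epithelium, macrophages and dendritic cells, and Cxcr6 is carried by tissue-resident T cells, NKT cells and innate lymphoid cells. The FPKM of Cxcl16 was 6.27, 10.3 and 12.4 at the lowest, median and highest AIMD mouse and 4.25, 5.88 and 7.94 in vehicle mice. The lowest AIMD mouse, replicate 1, lay inside the vehicle range and the other 6 lay above it. The log2 fold change was 0.68 (SE 0.16, limma adjusted p = 0.00356), from 103 to 557 reads per mouse. Exons of Cxcl16 overlap those of Zmynd15 on the opposite strand, and whether the counting used strand is not given in the sources used here. Exons of Ccl25, Ccl27a, Cxcl10, Cxcl11, Cxcr5 and Ccr9 also overlap other genes on the opposite strand, so the same limit holds for them.

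The FPKM of Cxcr6 was 0.668, 1.14 and 1.78 in AIMD mice and 0, 0.534 and 0.909 in vehicle mice. Of the AIMD mice 5 of 7 lay above every vehicle mouse. Vehicle replicate 8 had no read of Cxcr6, and it is the library with the fewest reads (4372423), in which 3 reads would give an FPKM of 0.362. That floor covers counting error only. Its log2 fold change was 0.79 (SE 0.21, limma adjusted p = 0.00753). It was 1.14 on the Arntl-low side (limma adjusted p = 0.0247) and 0.37 on the Arntl-high side, where it was not past the threshold (limma adjusted p = 0.237), and the difference between the sides had an unadjusted p of 0.0649 (limma interaction; adjusted p = 0.993). Of the 6 tested markers of T cells 0 rose and 1 fell (16.7%). Of all genes tested 19.4% rose and 16.6% fell. The summed FPKM of the T cell markers was 8.21 to 15.6 in AIMD mice and 8.08 to 14.0 in vehicle mice. The part of T cells in the value of Cxcr6 was not tested.

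Ccl20 and Ccl28 are chemokines of the gut epithelium. Ccl20, induced in the epithelium over lymphoid follicles, draws B cells, dendritic cells and Th17 cells through Ccr6. Its FPKM was 15.8, 22.5 and 36.1 at the lowest, median and highest AIMD mouse and 8.43, 15.9 and 23.7 in vehicle mice. Only AIMD replicates 2 and 4 lay above every vehicle mouse. Its log2 fold change of 0.58 (SE 0.22) was close to the threshold (limma adjusted p = 0.0466). With 1 mouse left out at a time, the call was kept without AIMD replicate 1 or 5 or vehicle replicate 1, 3 or 5, and lost without any one of the other 10 mice (limma adjusted p from 0.0573 to 0.0948, log2 fold change from 0.46 to 0.59). It was lost as well on either side of the clock-gene axis alone, with log2 fold changes of 0.61 on the Arntl-high side (limma adjusted p = 0.188) and 0.55 on the Arntl-low side (limma adjusted p = 0.186).

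Ccl28 draws IgA plasma cells to mucosae through Ccr10. Its FPKM was 10.5, 14.99 and 17.7 in AIMD mice and 4.96, 11.3 and 12.5 in vehicle mice, and 5 of 7 AIMD mice lay above every vehicle mouse. The log2 fold change of 0.46 (SE 0.18) was not past the threshold (limma adjusted p = 0.0590). It passed without AIMD replicate 3, AIMD replicate 5 or vehicle replicate 2 (limma adjusted p from 0.0428 to 0.0473). Ccr10, a receptor of plasma cells, stayed at or under 5 reads in every mouse.

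Cxcl14, a chemokine that epithelia and stroma make at steady state, was lower after AIMD. Its FPKM was 2.83, 3.06 and 4.30 in AIMD mice and 2.74, 4.57 and 10.5 in vehicle mice. The vehicle range covered the AIMD range on both sides, and 5 vehicle mice lay above every AIMD mouse. Cxcl14 had a log2 fold change of -0.53 (SE 0.20, limma adjusted p = 0.0461). The call was kept without AIMD replicate 2 or 6 or vehicle replicate 2, 3 or 4, and lost without any one of the other 10 mice (limma adjusted p from 0.0504 to 0.0851, log2 fold change from -0.55 to -0.38). On the Arntl-high side the log2 fold change was -0.20 (limma adjusted p = 0.507) and on the Arntl-low side -0.85 (limma adjusted p = 0.0326). Of 5 smooth muscle markers 1 fell (20%, against 16.6% of all genes tested), and 4 were not past the threshold. The one that fell was Tagln, an actin-binding protein (log2 fold change -1.17, limma adjusted p = 0.00454). The summed FPKM of the list was 203 to 773 in AIMD mice and 496 to 2898 in vehicle mice. The part of smooth muscle in the value of Cxcl14 was not tested.

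**Figure D2:**
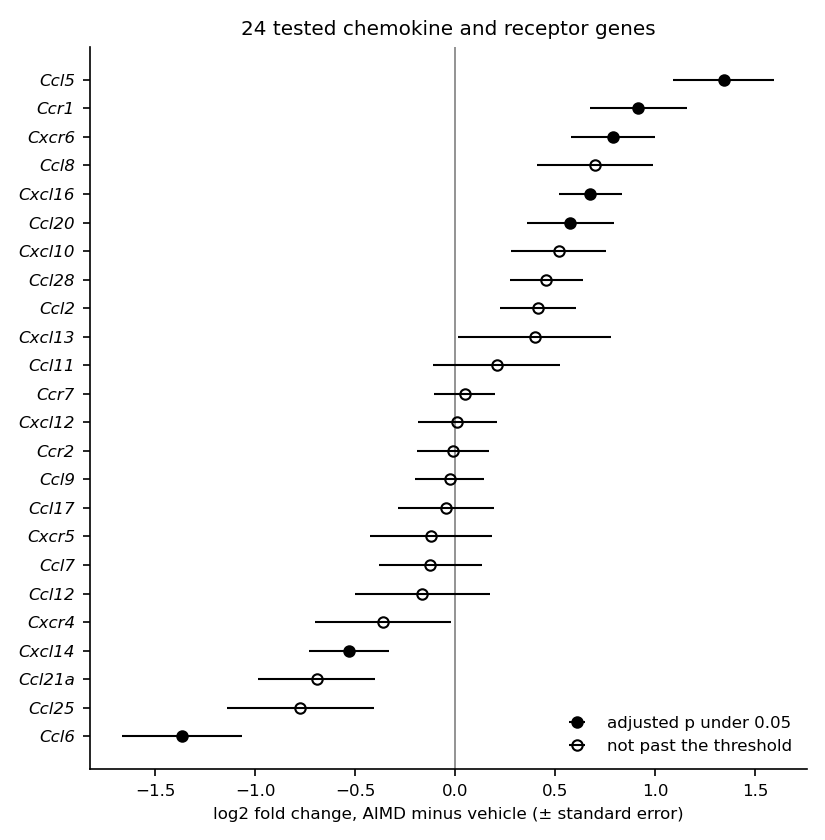
Log2 fold change of AIMD against vehicle (horizontal axis, on the log2(FPKM + 0.5) scale) of the 24 tested chemokine and receptor genes, with bars of 1 standard error. Filled circles passed a limma adjusted p of 0.05, from Ccl5 at 1.34 down to Ccl6 at -1.37.

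The remaining 17 tested genes did not pass the threshold, and their log2 fold changes lay between the -0.78 of Ccl25 and the 0.70 of Ccl8. Ccl25, the epithelial ligand of the gut-homing receptor Ccr9, had an FPKM of 2.62, 4.40 and 8.87 at the lowest, median and highest AIMD mouse and of 3.35, 5.91 and 19.2 in vehicle mice. Vehicle replicates 5, 7 and 8, at 12.9 to 19.2, lay above every AIMD mouse, and the other 5 vehicle mice lay within the AIMD range (log2 fold change -0.78, SE 0.37, limma adjusted p = 0.109). Ccl21a, a chemokine of lymphatic endothelium and T cell zones that is read by Ccr7, had an FPKM of 0.966, 3.42 and 5.57 in AIMD mice and of 2.67, 5.43 and 10.01 in vehicle mice (log2 fold change -0.69, SE 0.29, limma adjusted p = 0.0712). It passed without AIMD replicate 2, AIMD replicate 5 or vehicle replicate 5 (limma adjusted p from 0.0314 to 0.0491). Its value is uncertain in another way, since 71.6% of its 50-base windows also occur in transcripts of other genes, mostly Gm21541, a near copy. Ccr7 itself, the receptor of mature dendritic cells and naive T cells, had an FPKM of 0.240 to 1.04 in AIMD mice and of 0.386 to 0.818 in vehicle mice (limma adjusted p = 0.828).

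The chemokines that draw monocytes and eosinophils form another run on chromosome 11, of 6 genes from 82035571 to 82305690. None of its 5 tested genes passed the threshold (Ccl2, Ccl7, Ccl8, Ccl11 and Ccl12). Ccl2, the main monocyte chemokine, had an FPKM of 0.589, 0.754 and 1.27 in AIMD mice and of 0.120, 0.529 and 0.939 in vehicle mice (log2 fold change 0.41, SE 0.19, limma adjusted p = 0.0990), from at most 17 reads per mouse. Its receptor Ccr2 had an FPKM of 0.408 to 1.05 in AIMD mice and of 0.150 to 1.22 in vehicle mice (log2 fold change -0.01, SE 0.18, limma adjusted p = 0.975). Ccl8, chosen here after its values were seen, had an FPKM of 3.81, 5.78 and 11.6 in AIMD mice and of 1.58, 3.90 and 9.39 in vehicle mice (log2 fold change 0.70, SE 0.29, limma adjusted p = 0.0676). It passed without AIMD replicate 1 or vehicle replicate 8 (limma adjusted p = 0.0446 and 0.0138).

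Cxcl12, the stromal chemokine that retains leukocytes through Cxcr4, had medians of 1.44 in AIMD mice and 1.70 in vehicle mice and a log2 fold change of 0.01 (SE 0.20, limma adjusted p = 0.970). Cxcl13, the chemokine with which follicular stroma draws B cells through Cxcr5, had the widest AIMD range of the family as a difference in FPKM. Its FPKM was 8.86, 14.5 and 52.3 at the lowest, median and highest AIMD mouse and 6.15, 17.0 and 25.0 in vehicle mice (log2 fold change 0.40, SE 0.38, limma adjusted p = 0.438). AIMD replicates 4, 6 and 7, at 31.8 to 52.3, lay above every vehicle mouse, while the other 4 AIMD mice lay within the vehicle range. Cxcr5 had an FPKM of 0.354 to 2.86 in AIMD mice and of 0.482 to 3.24 in vehicle mice (limma adjusted p = 0.784). Cxcr4 had an FPKM of 1.80 to 13.1 in AIMD mice and of 3.36 to 12.5 in vehicle mice (log2 fold change -0.36, limma adjusted p = 0.428). Among mice of the Arntl-high side it was called lower after AIMD, at 1.80 to 3.50 against 3.36 to 7.24 (log2 fold change -0.91, SE 0.27, limma adjusted p = 0.0426), and on the Arntl-low side the log2 fold change was -0.01 (limma adjusted p = 0.990). The difference between the sides had an unadjusted p of 0.0573 (limma interaction; adjusted p = 0.993).

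The spread of these 3 genes within a group followed the markers of B cells. Of the 8 B cell markers tested 4 fell after AIMD (50%, against 16.6% of all genes tested) and 0 rose. Cd79b, a subunit of the B cell receptor, fell most (log2 fold change -1.39, SE 0.33, limma adjusted p = 0.00384). The summed FPKM of the list was 8.39 to 65.4 in AIMD mice and 35.1 to 89.3 in vehicle mice, and no marker was at 0 in all mice. Within groups, over the 15 mice, log2 FPKM of Cxcr4 correlated with the log2 sum of the B cell markers at Pearson's r = 0.89 (permutation p = 0.00027, BH adjusted p = 0.00162 over 24 relations) and Spearman's rho = 0.84 (permutation p = 0.0009). Without the 2 mice farthest from the median r was 0.79, and with values centred also within the sides of the clock-gene axis it was 0.91. For Cxcr5 r was 0.81 (permutation p = 0.00024, BH adjusted p = 0.00162), rho 0.85 (permutation p = 0.00016), r without 2 mice 0.80 and r within sides 0.71. For Cxcl13 r was 0.82 (permutation p = 0.00059, BH adjusted p = 0.00283), rho 0.83 (permutation p = 0.00113), r without 2 mice 0.73 and r within sides 0.78.

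These 24 relations set 8 genes of the family against the B cell, T cell and macrophage lists, and 11 had a BH adjusted p under 0.05, among them all 9 of Cxcr4, Cxcr5 and Cxcl13. The relation was thus not particular to B cell markers: Cxcl13 followed the macrophage list at r = 0.86 (permutation p = 0.0001, BH adjusted p = 0.0012; rho = 0.82, permutation p = 0.00106; r without 2 mice 0.79; r within sides 0.75). Much of the sum of that list is Lyz2 alone. Cxcr6 followed none of the 3 lists (r from 0.24 to 0.35, permutation p from 0.176 to 0.350; rho from 0.32 to 0.47, permutation p from 0.0858 to 0.256), and Ccl21a followed none either (r from -0.22 to 0.15, permutation p from 0.490 to 0.820). All values of a mouse come from 1 library and share its dissection. How much lymphoid tissue each sample of cecum held was not tested.

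**Figure D3:**
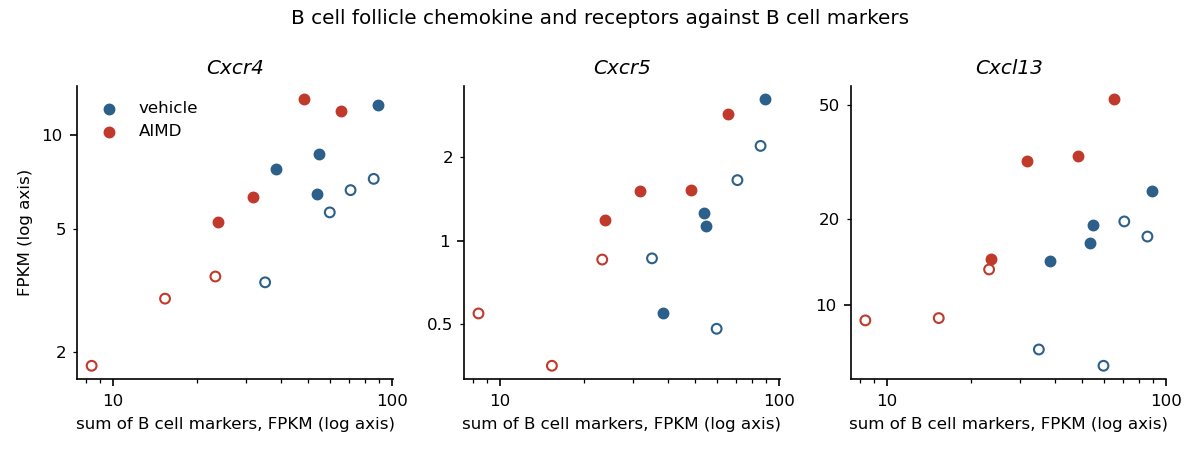
FPKM of Cxcr4, Cxcr5 and Cxcl13 (vertical axes, log) against the summed FPKM of 8 B cell markers (horizontal axis, log) in 8 vehicle-treated (blue) and 7 AIMD mice (red), with open circles for the Arntl-high side. All 3 genes rose with the B cell markers, and AIMD mice reached down to a marker sum of 8.39.

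The clock-gene axis marked a further difference within both groups. With the group in the model, 7 of the 24 tested genes (29.2%) differed between the Arntl-high and the Arntl-low side, against 16.4% of all genes tested. All 7 were lower on the Arntl-high side. The share of all genes that were lower on that side was not counted, so this direction cannot be called particular to the family. They were Ccl12 (log2 difference -1.07, SE 0.23, limma adjusted p = 0.00994), Cxcr4 (-1.02, SE 0.24, 0.0145), Cxcl16 (-0.45, SE 0.12, 0.0205), Cxcl13 (-1.07, SE 0.29, 0.0239), Cxcl12 (-0.55, SE 0.15, 0.0246), Ccr1 (-0.65, SE 0.19, 0.0302) and Cxcl10 (-0.63, SE 0.19, 0.0344). The clearest was Ccl12, a monocyte chemokine read by Ccr2. Its FPKM was 0.413 to 2.03 in the 4 vehicle mice of the Arntl-high side and 3.25 to 5.96 in the 4 of the Arntl-low side, without overlap. In AIMD mice it was 1.07 to 2.17 in 3 mice and 1.79 to 2.59 in 4 mice, which overlapped. The sides of the vehicle mice did not overlap in Cxcl16, Ccl7 and Ccr2 either. How many of all genes lack overlap between 4 and 4 vehicle mice was not counted. AIMD against vehicle, Ccl12 had a log2 fold change of -0.67 on the Arntl-low side (SE 0.20, limma adjusted p = 0.0398) and of 0.27 on the Arntl-high side (limma adjusted p = 0.583).

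Whether the effect of AIMD differed between the sides was tested as an interaction in limma. No gene of the 11971 tested passed an adjusted p of 0.05, and 534 (4.46%) had an unadjusted p under 0.05, among them Ccl7, Ccr7 and Ccl12 (unadjusted p = 0.0110, 0.0182 and 0.0321). The sides were set by 14 clock genes of these same libraries, and the labels do not name them as groups. They ran with the replicate numbers: AIMD replicates 1 to 3 and vehicle replicates 1 to 4 lay on the Arntl-high side. Whether the sides are the study's times of sacrifice cannot be told from the labels. The part of the time of sacrifice in these differences was not tested.

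**Figure D4:**
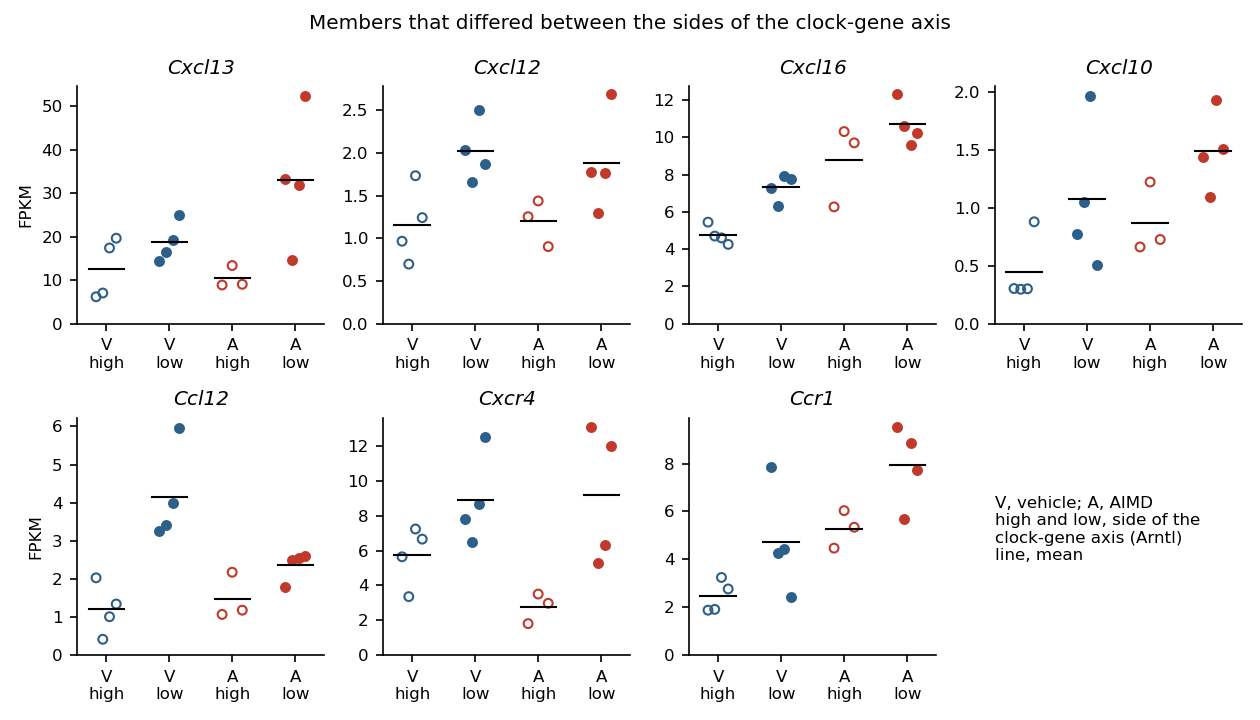
FPKM (vertical axis, linear) of the 7 genes that differed between the sides of the clock-gene axis, in 4 vehicle mice of the Arntl-high side, 4 of the Arntl-low side, 3 AIMD mice of the Arntl-high side and 4 of the Arntl-low side. Lines are means, and for each gene the mean of the Arntl-high side was lower in both groups, as for Ccl12 in vehicle mice (1.20 against 4.15).

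The genes of the interferon-induced ligands of Cxcr3, a receptor of activated T cells and NK cells, lie together on chromosome 5 from 92321347 to 92365485. They are Cxcl9, Cxcl10 and Cxcl11, the last of which is annotated as a polymorphic pseudogene. Cxcl9 reached the FPKM minimum in 6 mice, all AIMD, 1 mouse short of the filter, and was therefore outside the main test. Its FPKM was 0.454, 0.884 and 1.79 at the lowest, median and highest AIMD mouse and 0.0451, 0.271 and 0.379 in vehicle mice. Every AIMD mouse was above every vehicle mouse, the only such case among the 49 genes, and the means stood in a ratio of 3.91. The exact permutation over all splits of 7 and 8 mice, 1 of 49 such tests, gave a two-sided p = 0.000155. Groups without overlap always give this value, the minimum of this design, so it only restates the lack of overlap. Among the 11971 genes of the main test, which leave out Cxcl9, 8.56% had no overlap, 5.26% with AIMD higher. The values of Cxcl9 rest on 20 to 71 reads per AIMD mouse and 1 to 13 per vehicle mouse. In limma voom on the recovered reads, an analysis added after the data were seen that takes in genes with at least 2 reads in at least 7 mice, the log2 fold change was 1.91 (SE 0.38, adjusted p = 0.000944 over 15948 genes).

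Cxcl10 had an FPKM of 0.661, 1.22 and 1.93 in AIMD mice and of 0.296, 0.641 and 1.97 in vehicle mice. Its log2 fold change of 0.52 (SE 0.24) was not past the threshold (limma adjusted p = 0.0967), and without vehicle replicate 7, which alone was above all AIMD mice, it was 0.67 (limma adjusted p = 0.0184). Cxcl11 had at most 9 reads in any mouse, and its FPKM was 0.0603 to 0.158 in AIMD mice and 0.0356 to 0.322 in vehicle mice. Cxcr3 was at 0.0694 to 0.308 in AIMD mice and 0 to 0.234 in vehicle mice, with 35 reads in all AIMD mice together and 8 in all vehicle mice.

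The same voom analysis tested 37 of the 49 genes and called 12 (32.4%), against 30.9% of all genes. It called 9 higher in AIMD (16.4% of all genes were), namely Ccl5, Ccl20, Ccl22, Cxcl9, Cxcl16, Ccr1, Ccr6, Cxcr3 and Cxcr6, and 3 lower (14.5% of all genes were), namely Ccl6, Ccl19 and Ccl24. Genes chosen here after their values were seen are Ccl17, Ccl22, Ccl24 and Ccr4. Ccl22, a dendritic cell ligand of Ccr4, had an FPKM of 0.317 to 0.981 in AIMD mice and of 0.131 to 0.590 in vehicle mice (voom log2 fold change 1.13, SE 0.33, adjusted p = 0.0142). Ccl17, another ligand of Ccr4, had an FPKM of 0.308 to 1.16 in AIMD mice and of 0.288 to 2.23 in vehicle mice. It was called neither in the main test (log2 fold change -0.05, SE 0.24, limma adjusted p = 0.899) nor by voom (adjusted p = 0.996). Ccr4, a receptor of regulatory and type 2 helper T cells, had 19 reads in all AIMD mice and 2 in all vehicle mice. Ccr6, the receptor of Ccl20, had 1 to 12 reads in each AIMD mouse and 4 reads in all vehicle mice, with 6 of these at 0 (voom log2 fold change 1.67, SE 0.52, adjusted p = 0.02). Counts this small move with depth, and the AIMD libraries together held 1.28 times the reads of the vehicle libraries.

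Ccl19, the other ligand of Ccr7, had an FPKM of 0 to 0.344 in AIMD mice and of 0 to 0.785 in vehicle mice, and 6 vehicle mice lay above every AIMD mouse (voom log2 fold change -1.68, SE 0.50, adjusted p = 0.0144). It also shares 52.0% of its 50-base windows, mostly with Gm2564, and is therefore uncertain. Ccl24, a ligand of the eosinophil receptor Ccr3, had 0 to 3 reads in each AIMD mouse and 1 to 3 in each vehicle mouse (voom log2 fold change -1.49, SE 0.50, adjusted p = 0.0279). Over the 14 ligand-receptor pairs compared, Cxcl16 and Cxcr6 were the only pair with both genes past the threshold of the main test, in which only 5 pairs had both genes tested. In the voom analysis 3 pairs had both genes called, with Ccl20 (adjusted p = 0.0327) and Ccr6, and Cxcl9 and Cxcr3 (adjusted p = 0.0367), beside Cxcl16 and Cxcr6.

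The CXC chemokines that attract neutrophils, Cxcl1, Cxcl2, Cxcl3 and Cxcl5, lie together on chromosome 5 from 90759360 to 90905938, and none passed the filter. AIMD replicate 4 stood apart from the other 14 mice in all 4. It had 19 reads of Cxcl1 (at most 5 in any other mouse), 6 of Cxcl2 (at most 2), 4 of Cxcl3 (0 in every other mouse) and 4 of Cxcl5 (at most 2). Part of the letters of Cxcl2 and Cxcl3 is shared, 5.84% and 4.24% of their 50-base windows. The neutrophil proteins S100a8 and S100a9 were also highest in this mouse, with 14 and 11 reads against at most 5 and 6, and its summed FPKM of the neutrophil markers was 30.2, against at most 3.79 in the other AIMD mice and 1.38 in vehicle mice. Of this sum 24.7 is Ly6g alone, a surface protein of neutrophils. Csf3r, the receptor of granulocyte colony-stimulating factor on neutrophils, was at no more than 0.162 in any AIMD mouse and 0.209 in any vehicle mouse. The receptors Cxcr1 and Cxcr2 had no read in this mouse. It had 8679679 reads, fewer than any other AIMD mouse. Without it, 5 of the 24 tested genes of the family were called, since Ccl20 (limma adjusted p = 0.0948) and Cxcl14 (limma adjusted p = 0.0785) were lost.

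**Figure D5:**
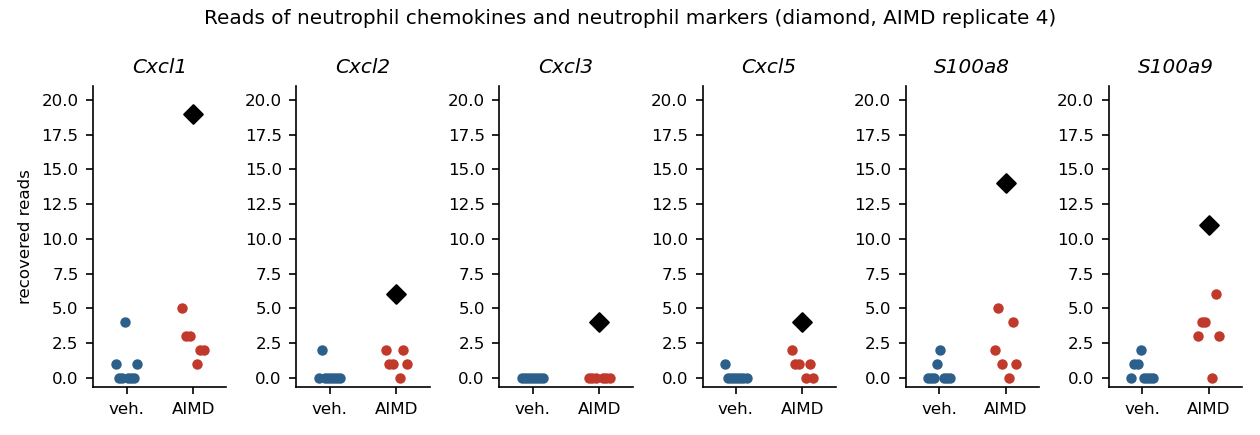
Recovered reads (vertical axis, linear) of 4 neutrophil-attracting chemokines and of the neutrophil genes S100a8 and S100a9 in 8 vehicle-treated (blue) and 7 AIMD mice (red), not scaled for depth. The diamond is AIMD replicate 4, with 19 reads of Cxcl1 and 14 of S100a8, above all other mice in each panel.

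Other genes under the filter, with their highest FPKM in any mouse, were Ccl4 (0.818), Ccl3 (0.627), Ccl27a (0.341), Ccr10 (0.337), Ccr9 (0.295), Ccl19-ps1 (0.265), Ccr3 (0.233), Ccr4 (0.172), Cxcr2 (0.134), Ccr8 (0.132), Cxcr1 (0.0905), Ccr1l1 (0.0510) and Ccl1 (0.0352). Of the 25 genes under the filter 7 had fewer than 10 reads in all 15 mice together. Ccr9, the receptor of Ccl25, had an FPKM of 0.0447 to 0.295 in AIMD mice and of 0.0157 to 0.145 in vehicle mice. In Ccl1, Ccl19-ps1, Cxcl3, Ccr8 and Ccr1l1 every vehicle mouse was at 0, and none of them had more than 4 reads in AIMD mice together.

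Of the 3 tested receptor genes that lie near each other on chromosome 9, Cxcr6 and Ccr1 rose, with 150364 bases between them, and Ccr2 was not past the threshold. Of the 50-base windows of Ccr2, 1.91% also occur in transcripts of other genes.

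Genes around the family were read from 4 lists, whose counts stand beside the 19.4% of all genes tested that rose and the 16.6% that fell. Among 8 tested genes of other chemokine ligands, receptors and decoys 1 rose and 0 fell. This was Xcl1, the chemokine that draws cross-presenting dendritic cells through Xcr1, with an FPKM of 1.61, 2.39 and 4.37 in AIMD mice and of 0, 0.391 and 1.75 in vehicle mice (log2 fold change 1.58, SE 0.28, limma adjusted p = 0.000411). Of 29 tested genes that carry the signal of chemokine receptors 9 rose (31%) and 5 fell (17.2%). Rgs16, which shuts off G protein signals, rose (log2 fold change 0.68, SE 0.12, limma adjusted p = 0.000365), as did Gna13, Jak2 and Rac1 (0.70, 0.81 and 0.52, limma adjusted p = 0.00169, 0.00227 and 0.00406). Of 15 tested genes of NF-kappaB and its regulators 4 rose and 0 fell, so that 26.7% were called, against 36.0% of all genes tested. Tnfaip3, the NF-kappaB inhibitor also called A20, had an FPKM of 3.42 to 6.38 in AIMD mice and of 0.584 to 1.85 in vehicle mice, without overlap (log2 fold change 1.67, SE 0.16, limma adjusted p = 1.56e-06). Nfkb1, Nfkbie and Relb also rose (0.94, 0.44 and 0.46, limma adjusted p = 0.00014, 0.0109 and 0.0151). Of 13 tested lymphotoxin and TNF-family genes that organise lymphoid tissue 3 rose (23.1%) and 2 fell (15.4%). Tnfsf13b, the B cell survival factor BAFF, rose (0.75, SE 0.14, limma adjusted p = 0.000497), as did Tnfrsf1a, a receptor of tumor necrosis factor (0.58, limma adjusted p = 0.00689), and Tnfrsf13c, the receptor of BAFF on B cells, fell (-1.14, SE 0.32, limma adjusted p = 0.0111).

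Binding motifs were looked up in the RefSeq promoters (GRCm38.p6, 250 bases before the start), which hold 39 promoters of 35 of the 49 genes. The kappaB motif, searched as GGGNNNNNCC on both strands, was found in 24 of these 39 (61.5%) and in 45.8% of all 32851 promoters. An interferon-stimulated response element, searched as GAAANNGAAA on both strands, was found in 3 of 39 (7.69%) and in 2.98% of all. Such matches are letters and not proven sites. The promoters of Ccl20, a known target of NF-kappaB, and of the interferon-induced Cxcl9 and Cxcl10 are printed with both motifs in capitals, where adjoining capitals can be overlapping matches.
Ccl20 (chr1:83116516-83116765, plus strand): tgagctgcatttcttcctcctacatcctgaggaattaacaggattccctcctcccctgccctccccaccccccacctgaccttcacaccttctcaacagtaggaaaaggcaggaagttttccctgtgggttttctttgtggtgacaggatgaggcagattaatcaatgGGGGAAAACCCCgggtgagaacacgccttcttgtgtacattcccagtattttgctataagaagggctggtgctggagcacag
Cxcl9 (chr5:92328080-92328329, minus strand): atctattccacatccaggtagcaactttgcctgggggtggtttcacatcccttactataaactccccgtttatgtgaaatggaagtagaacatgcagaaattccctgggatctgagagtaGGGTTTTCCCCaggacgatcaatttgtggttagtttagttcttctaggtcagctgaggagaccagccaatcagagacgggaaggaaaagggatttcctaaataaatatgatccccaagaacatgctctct
Cxcl10 (chr5:92348890-92349139, minus strand): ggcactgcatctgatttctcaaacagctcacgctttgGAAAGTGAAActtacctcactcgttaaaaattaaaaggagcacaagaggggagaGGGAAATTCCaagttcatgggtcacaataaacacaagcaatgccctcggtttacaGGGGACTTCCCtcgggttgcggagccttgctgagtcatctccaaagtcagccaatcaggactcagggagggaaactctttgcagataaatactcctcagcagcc
Ccl20 held 3 overlapping kappaB matches, the nearest 80 bases before the start, Cxcl9 held 2 overlapping ones, the nearest 129 bases before it, and Cxcl10 held 3 kappaB matches and 1 response element. Of the 3 genes, Ccl20 rose, Cxcl9 was higher in every AIMD mouse than in any vehicle mouse, and Cxcl10 was not past the threshold.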

How the data were processed

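Cecal poly-A RNA was sequenced from stranded libraries as single reads of 50 bases, for 7 mice given AIMD and 8 given vehicle. As the methods state, the authors aligned with STAR to GRCm38 and took gene counts from featureCounts with a GENCODE annotation. They deposited FPKM by gene symbol for each mouse, and how counts became FPKM is not given in the sources used here. Of the 45808 rows, 4 were left out because their symbol is repeated, and 27 carry symbols turned into dates. Mice were grouped by their labels. The methods state that mice shared cages, and the cage of each mouse is not given. The p-values therefore measure the spread between these mice, and the part of the cage in it was not tested.

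Median-of-ratios size factors (1.01 in every mouse, from 13594 genes) divided the FPKM, and log2(FPKM + 0.5) was taken. Genes that reached an FPKM of 0.5 in 7 or more mice were fitted in limma 3.58.1 (R 4.3.3) with a trend and Benjamini-Hochberg adjustment over 11971 genes, two-sided, at 0.05. Whole reads (within 0.02 of a whole number) were recovered for 100% of 24279 genes, and limma voom on these reads with TMM scaling was an alternative. The fit and the recovery were tested on simulated data. The clock-gene axis is the first principal component of 14 clock genes centred within groups (92.0% of their variance). Exact tests used all 6435 splits of the mice, and correlations used 100000 permutations of values centred within groups. Other steps ran in Python 3.11.15 with scipy 1.17.1, pandas 2.3.3, numpy 2.4.6 and matplotlib 3.10.9. Positions and 50-base windows shared between transcripts are from GENCODE M21.

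Genes of the family and the lists of markers and pathway genes were chosen with earlier results of these data known. Genes past the threshold, those of 14 ligand-receptor pairs and the highest of each of the 4 name classes are given with values, the others by counts or ranges, those under the filter by name except 1 that is not reported here and is held in the counts, and at most 4 genes of each list by the smallest adjusted p among those called. Alternatives were other scalings, pseudocounts, filters, thresholds and tests, the clock-gene axis as a covariate or a split, a replicate block, and each mouse left out. Voom on genes with at least 2 reads, and the model of sides with its interaction, were added after the data were seen. Protein sequences were not used here.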

Additional observations from a re-analysis of the deposited data

Results flagged for a closer look

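Each group of mice was searched for a highest or lowest value far from its nearest neighbour relative to the range (Dixon's 95% critical value) on the log2(FPKM + 0.5) scale, in the 24 tested genes. Of 48 such groups 2 stood out, and chance gives about 1 in 20. Cxcl16 was lowest in AIMD replicate 1, at an FPKM of 6.27, with a gap to the next AIMD mouse of 0.619 of the range on that log2 scale. Ccl11, an eosinophil chemokine, was highest in vehicle replicate 8, at an FPKM of 5.491, with a gap of 0.541 of the range on the same scale.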

How the results depend on the processing

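Of the 24 tested genes, Ccl5 and Cxcl16 were called under all 29 alternatives run on each gene, and Ccl6, Ccr1 and Cxcr6 under all but 1 of those in which they could be tested, a single side of the clock-gene axis. Ccl20 lost its call in 15 and Cxcl14 in 14 of 29. No called gene changed sign. The count of 7 genes was 12 (9 higher, 3 lower) both with no filter and with voom on genes of at least 2 reads, and 11 genes were in both sets (Ccr4 was called with no filter alone and Ccl20 with voom alone). It was 4 (3 higher, 1 lower) among mice of the Arntl-high side alone, which are fewer (3 of the 7, Ccl5, Ccr1 and Cxcl16, and Cxcr4 as the lower one), and 2 (Ccl5 and Ccl6) when a log2 fold change of at least 1 was also required. With the clock-gene axis as a covariate 10 genes were called, adding Ccl8, Ccl28 and Cxcl10. With 1 mouse left out at a time 5 to 8 were called. The count of 4315 over all genes was 1883 on the Arntl-high side alone, 2532 on the Arntl-low side alone, 2481 at a threshold of 0.01 and 765 with a log2 fold change of at least 1, and 3503 to 4609 with 1 mouse left out. Under the remaining alternatives both counts stayed within 1.5 times the main ones.

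Replicate numbers name different mice, and the deviations of same-numbered mice did not go together (correlation from -0.35 to 0.43 over 7 pairs, with 1 of 7 AIMD mice closest to its own number). The fit with a replicate block called 8 genes of the family (6 higher, 2 lower; Ccl8 and Cxcl10 gained, Ccl20 lost) and 4610 genes in all. Depth limits the 25 genes under the filter, and the least deep library held 4372423 reads.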

Other observations

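The other marker lists read beside the family gave these values, which stand beside the 19.4% of all genes tested that rose and the 16.6% that fell. Of 7 epithelial markers 2 rose (28.6%) and 0 fell. Of 3 tested plasma cell markers Sdc1, a heparan sulfate proteoglycan that epithelium also makes, rose (log2 fold change 0.52, SE 0.12, limma adjusted p = 0.00360), and Mzb1, a chaperone of antibody secretion, fell (-1.12, SE 0.30, limma adjusted p = 0.00861). Their summed FPKM was 111 to 321 in AIMD mice and 81.2 to 301 in vehicle-treated mice. Of 9 fibroblast and endothelial markers Madcam1, the vascular address of gut-homing lymphocytes, fell (-0.70, SE 0.15, limma adjusted p = 0.00230). The other 8 were not past the threshold, so that 11.1% of the list fell. The single tested neutrophil marker, Ly6g, rose (1.46, SE 0.50, limma adjusted p = 0.0324), while its FPKM in AIMD replicate 4 was 24.7 and the median of AIMD mice was 1.94. Elane, another neutrophil gene, was at 0 in every mouse. Neither the single tested dendritic cell marker (Itgax, limma adjusted p = 0.133) nor that of mast cells and eosinophils (Kit, limma adjusted p = 0.112) passed the threshold.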
